A study of Mus musculus with 16 samples.

Results

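The genes described here are 39 genes of mature skeletal muscle, chosen by symbol from 18635 genes in the deposited count tables of samples labelled as mouse tumours. They hold 11 genes of the thick filament, 8 of the thin filament, 10 of the Z-disc and sarcomere scaffold, 5 of calcium handling and 5 of energy supply and oxygen storage. RNA was sequenced from 16 samples labelled as tumours, described as formed after mouse cancer lines were implanted in syngeneic mice. The comparison was of samples with and without Trp53bp1, which encodes the DNA damage response protein 53BP1. The KPC line (pancreatic cancer) gave 5 wild-type and 5 Trp53bp1 knockout samples, and the ID8 line (ovarian cancer) gave 3 of each. The labels name no further allele or agent. They do not say how many clones each knockout line came from, at which site or age the mice were implanted, or whether replicates shared a cage or day, so that within each line the knockout and any other difference of the knockout cells cannot be told apart. The label's extraction text speaks of cells, while every sample is labelled as tumour.

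Skeletal muscle fibres shorten when myosin heads of the thick filament pull on actin of the thin filament. The troponin complex on the thin filament switches this on when calcium leaves the sarcoplasmic reticulum, and the Z-disc anchors the filaments. Fast and slow fibres use different genes for myosin, troponin and calcium handling: Myh4, Myh1 and Myh2 encode the fast myosin heavy chains IIb, IIx and IIa, and Myh7 encodes the slow one.

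Total counts ranged from 17902877 to 19727541 per library, so that 3 counts, the upper limit that a count of 0 allows, correspond to 0.152 to 0.168 CPM (counts scaled to the library total). Levels below are in CPM, and these limits and the intervals given cover counting error only. Trp53bp1 was 51.7 ± 4.06 CPM in KPC wild type and 34 ± 4.1 CPM in KPC knockout (SD, n = 5 each), without overlap, and fell by 0.59 on the log2 scale (SE 0.0898, edgeR adjusted p = 0.004). In ID8 it was 44.9 ± 2.85 and 18.9 ± 0.509 CPM (SD, n = 3 each). Ptprc, the leukocyte marker CD45, lay between 51.1 and 217 CPM in KPC libraries and had 0 counts in all 6 ID8 libraries. The summed level of 8 leukocyte markers was 1251 to 3220 CPM in KPC and 3.72 to 12.1 CPM in ID8.

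RefSeq promoter windows (build GRCm38.p6) were found for 30 of the 39 genes, with 37 windows in all. The sequences below end at the base before the annotated start and run 5′ to 3′ on the gene's strand. They are shown for Acta1, encoding skeletal alpha-actin, and Myh4, whose levels moved together across libraries, and for Csrp3 and Myoz2, the 2 genes that passed the test between KPC genotypes. Capitals mark matches to the E-box CANNTG, to the CArG box bound by serum response factor and to the element bound by MEF2 factors. All 3 are known elements of muscle genes.
Acta1 (chr8:123894776-123894925, minus strand): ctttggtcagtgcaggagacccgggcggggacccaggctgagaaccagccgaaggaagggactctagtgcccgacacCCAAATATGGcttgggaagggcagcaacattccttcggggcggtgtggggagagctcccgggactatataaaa
Myh4 (chr11:67237662-67237811, plus strand): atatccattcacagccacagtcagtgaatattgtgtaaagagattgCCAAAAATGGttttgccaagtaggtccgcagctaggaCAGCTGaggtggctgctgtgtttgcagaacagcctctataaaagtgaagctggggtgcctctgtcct
Csrp3 (chr7:48848052-48848201, minus strand): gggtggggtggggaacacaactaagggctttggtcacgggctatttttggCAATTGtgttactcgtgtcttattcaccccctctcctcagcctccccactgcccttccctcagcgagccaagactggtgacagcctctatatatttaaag
Myoz2 (chr3:123034988-123035137, minus strand): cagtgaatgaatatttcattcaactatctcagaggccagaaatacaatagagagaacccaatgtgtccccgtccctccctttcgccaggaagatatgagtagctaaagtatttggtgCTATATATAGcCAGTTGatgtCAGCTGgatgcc

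The motifs were searched on both strands in the 250 bases before each start, and a stretch could count for more than 1 motif. The CArG box was found in 3 of the 37 windows (8.11%), those of Acta1, Myh4 and Myl3, against 1.47% of 32851 windows of all genes. The MEF2 element was found in 7 windows (18.9%), those of Myh1, Myh4, Myh8, Myoz2, Pvalb, Ttn and Xirp2, against 2.92% of all windows. E-boxes were found in 33 windows (89.2%), against 66.2% of all windows. A match is a description of the letters and does not show that a factor binds there.

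The 39 genes together made up very different shares of the KPC libraries. Their summed level was 4609.7, 48763, 2797, 11424 and 1045 CPM in wild-type replicates 1 to 5, and 139, 7032, 66.6, 123 and 10188 CPM in knockout replicates 1 to 5. In wild-type replicate 2 this was 4.88% of all counts (95% Wilson interval 4.87% to 4.89%), and in knockout replicate 3 it was 0.00666% (0.0063% to 0.00703%). The groups overlapped, because knockout replicates 2 and 5 lay above wild-type replicates 1, 3 and 5, while knockout replicates 1, 3 and 4 lay below every wild-type library. In ID8 the same sum was 85.5 to 85.8 CPM in wild type and 49.5 to 56.4 CPM in knockout. In bulk tumour RNA, fewer muscle cells and less muscle RNA per cell cannot be told apart.

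**Figure D1:**
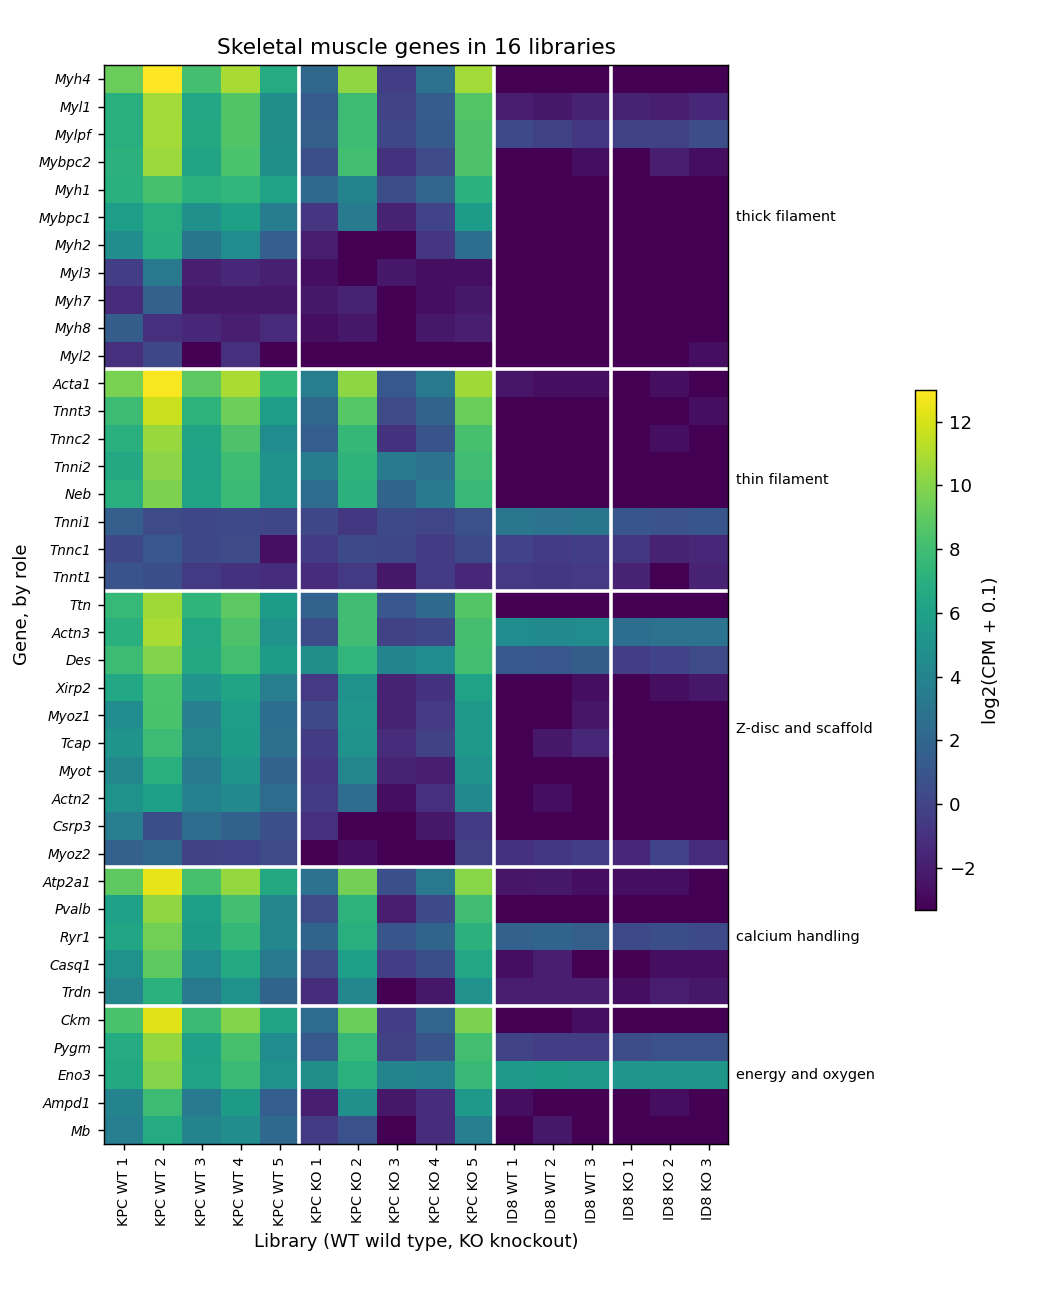
Level of each of the 39 genes (rows, grouped by role) in each of the 16 libraries (columns), coloured by log2(CPM + 0.1). KPC wild-type replicate 2 is the brightest column for 35 genes, KPC knockout replicates 1, 3 and 4 are dark in most rows, and most genes are at or near 0 in ID8.

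The order of the libraries was much the same from gene to gene. Wild-type replicate 2 had the highest KPC level of 35 genes, and wild-type replicate 1 that of the other 4, namely Csrp3, Myh8, Tnnt1 and Tnni1. Knockout replicate 5 had the highest level among knockout libraries for 34 genes, and knockout replicate 3 had the lowest KPC level of 29. Knockout replicates 1, 3 and 4 were all below every wild-type library for 34 genes, the exceptions being Myh7, Tnnt1, Tnni1, Tnnc1 and Myl2. For 27 genes, by contrast, knockout replicates 2 and 5 were both above wild-type replicate 5. Among the 24 genes with over 3 counts in all 10 KPC libraries, the highest library exceeded the lowest by 5.61-fold (Tnni1) to 11144-fold (Myh4), with a median of 1539-fold.

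Per length of transcript, thin filament genes led in KPC. Mean level over the 10 libraries, divided by the length of the longest GENCODE M21 transcript, was 932 CPM per kilobase for Acta1, followed by Tnnt3 (fast troponin T) with 508, Mylpf (fast regulatory light chain) with 378, Tnnc2 (fast troponin C) with 355 and Ckm (muscle creatine kinase) with 293. The slow and neonatal heavy chain genes Myh7 and Myh8 were last, with 0.0685 and 0.068 CPM per kilobase. These means weight wild-type replicate 2 heavily, and the libraries share 1 processing.

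Of the 39 genes, 35 passed the filter on low counts in the comparison of KPC genotypes, and Myh7, Myh8, Myl2 and Myl3 did not. Only Csrp3 and Myoz2 passed an edgeR adjusted p of 0.05, both lower in knockout, against 13.7% of all 14283 genes tested that passed in either direction and 7.01% that passed as lower. At an unadjusted p under 0.05 there were 4 (Myh2, Mb, Csrp3 and Myoz2), against 32.5% of all genes. The same 2 genes, Csrp3 and Myoz2, were the only ones whose groups did not overlap, against 11.3% of all genes tested. The 2 genes that passed as lower are too few to tell their share from the 7.01% of all genes that did. The median log2 change was -2.05, against -0.01 over all genes, and all 35 changes were negative. The genes share the order of the libraries, so that their signs are not independent, and the filter keeps genes that are high in 1 group alone. The median SE of a log2 change was 1.44 for these genes and 0.12 for all genes tested. When 1 library was left out, the log2 change of Acta1 ranged from -2.85 to -0.57. That of Myh4 ranged from -2.80 to -0.23 and that of Ckm from -3.03 to -0.38.

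**Figure D2:**
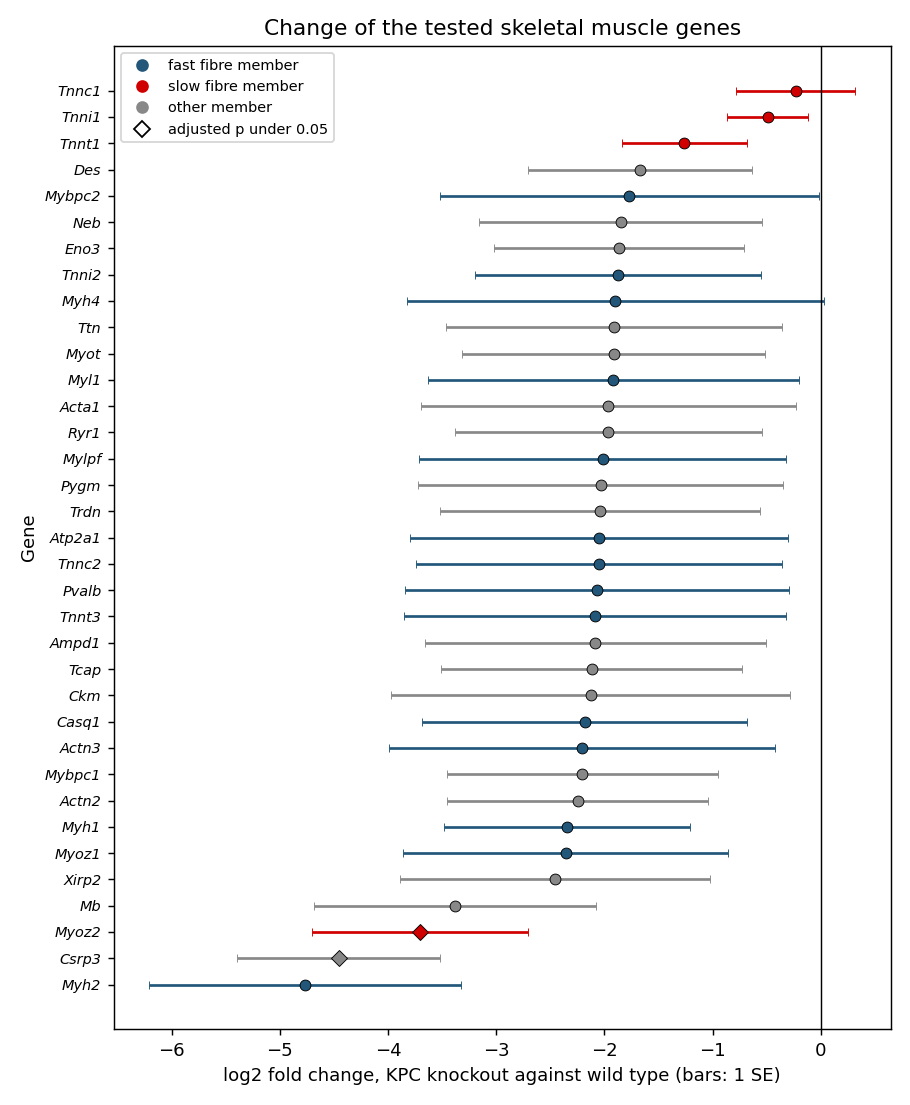
Log2 fold change of KPC knockout against wild type for the 35 genes tested (points; bars, 1 SE), coloured by fibre type, with diamonds for an edgeR adjusted p under 0.05. All points lie below 0, but only Csrp3 and Myoz2 are diamonds, and the slow troponin genes Tnnc1, Tnni1 and Tnnt1 lie nearest to 0.

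Myh4, the heavy chain of the fastest fibres, had the highest CPM of the thick filament genes in 8 of 10 KPC libraries, without regard to length, and Myh1 in knockout replicates 1 and 3. Myh4 made up 57.6% to 62.8% of their summed CPM in wild-type replicates 2 and 4 and knockout replicates 2 and 5, and under 50% in the others. Myh4 was 605, 8138, 278, 1863 and 104 CPM in wild-type replicates 1 to 5 and 4.49, 1271, 0.73, 7.05 and 1727 CPM in knockout replicates 1 to 5. The groups overlapped through knockout replicates 2 and 5, and the log2 change of -1.90 (SE 1.93) did not pass (edgeR adjusted p = 0.52). Myh1 was 131, 308, 138, 169.7 and 71.5 CPM in wild type and 4.6, 15.5, 1.36, 3.85 and 136 CPM in knockout. Its spread was smaller than that of Myh4, and knockout replicate 5 alone lay among the wild-type libraries. The log2 change of Myh1 was -2.35 (SE 1.14, edgeR adjusted p = 0.186), and without knockout replicate 5 it was -4.68 (adjusted p = 0.0121). Over all fits that left out 1 library it ranged from -4.68 to -1.95 (edgeR adjusted p of 0.0121 to 0.302). With limma-voom and all libraries the adjusted p for Myh1 was 0.0408.

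Myh2, of the fast oxidative fibres, had the largest log2 change in this group, -4.77 (SE 1.44, edgeR adjusted p = 0.0574). It was 25.9, 114, 8.12, 22.9 and 2.85 CPM in wild type and 0.162, 0, 0, 0.488 and 5.82 CPM in knockout, where only knockout replicate 5 exceeded the lowest wild-type library. Without that library the log2 change was -7.71 (adjusted p = 0.0249). Over all fits that left out 1 library it ranged from -7.71 to -3.49 (edgeR adjusted p of 0.0249 to 0.115). The DESeq2 test with all libraries gave an adjusted p of 0.0201. Knockout replicate 2 had 0 counts of Myh2 although its Myh4 level was 1271 CPM. Myh7 reached 3.16 CPM in wild-type replicate 2 and was at most 0.311 CPM in the other 9 KPC libraries. Myh8, the neonatal heavy chain, reached 2.69 CPM in wild-type replicate 1 and was at most 0.368 CPM elsewhere. The other thick filament genes tested (Mylpf, Myl1, Mybpc1 and Mybpc2) had log2 changes of -2.02, -1.92, -2.20 and -1.77, none of which passed.

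As a share of the counts of the 5 heavy chain genes, Myh4 varied with the library. Its share was 79.1%, 95.03%, 65.5%, 90.6% and 58.1% in wild-type replicates 1 to 5 and 47.7%, 98.8%, 35.0%, 61.0% and 92.4% in knockout replicates 1 to 5. Most of the remainder was Myh1, with 3.59% to 40.1% in wild type and 1.21% to 65.0% in knockout. Myh2 made up 1.12% to 3.39% in wild type and 0% to 4.23% in knockout. The 4 libraries with Myh4 shares above 90% were those with the highest muscle levels, wild-type replicates 2 and 4 and knockout replicates 2 and 5. Knockout replicates 1, 3 and 4 rest on only 174, 40 and 213 heavy chain counts, and the 95% Wilson interval for Myh4 in knockout replicate 3 was 22.1% to 50.5%. Myh7 was at most 1.15% in every KPC library. The heavy chain genes resemble one another closely, and the counting tool can divide reads among them, so that the shares of single genes are uncertain.

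**Figure D3:**
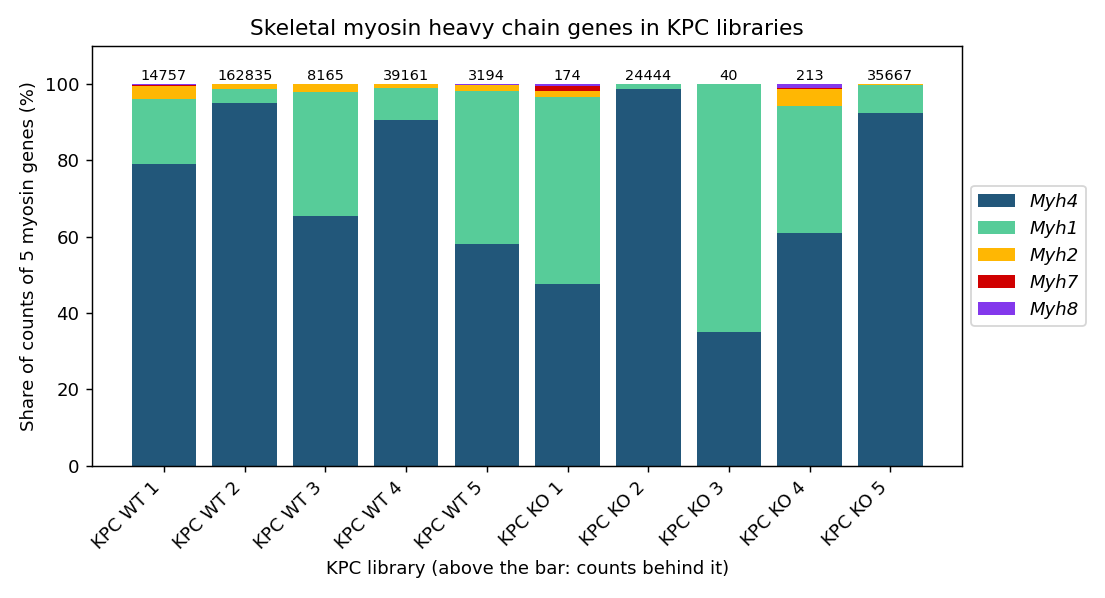
Share of each of 5 skeletal myosin heavy chain genes in their summed counts (y axis, percent) for each KPC library, with the counts behind each bar above it. Myh4 makes up over 90% in wild-type replicates 2 and 4 and knockout replicates 2 and 5, and Myh1 makes up most of the rest.

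Thin filament genes split by fibre type. Acta1, present in fast and slow fibres, was 823, 7324, 461, 1897 and 177 CPM in wild type and 12.3, 1174, 2.14, 9.54 and 1596 CPM in knockout (log2 change -1.96, SE 1.73, edgeR adjusted p = 0.457). Tnnt3 was 237, 3319.9, 149, 659.8 and 53.9 CPM in wild type and 4.49, 423, 1.2, 3.58 and 634 CPM in knockout, and Tnnc2 was 129, 1423, 73, 342 and 24.9 and 2.81, 186, 0.417, 1.79 and 299.5 CPM. Both ranked the 10 libraries in the order of Acta1, so that their groups overlapped in the same way. The log2 changes of Tnnt3 and Tnnc2 were -2.08 (SE 1.77) and -2.05 (SE 1.69), and neither passed. Tnni2, the fast troponin I gene, was 93.6, 1137, 67.1, 238 and 31.9 CPM in wild type and 12.1, 156, 11.1, 6.94 and 251 CPM in knockout (log2 change -1.88, SE 1.32, edgeR adjusted p = 0.348). Per 1000 CPM of Acta1 it was 978, 5171 and 727 CPM in knockout replicates 1, 3 and 4, and 114 to 180.5 CPM in the other KPC libraries. Neb, encoding the thin filament ruler nebulin, had a log2 change of -1.85 (SE 1.31).

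The slow counterparts were low in every KPC library. Tnni1 was 2.95, 1.26, 1.04, 1.16 and 1.01 CPM in wild type and 1.03, 0.526, 1.15, 0.975 and 1.57 CPM in knockout, and Tnnt1 was 1.76, 1.42, 0.573, 0.42 and 0.335 and 0.324, 0.579, 0.104, 0.596 and 0.262 CPM. Tnnc1, which heart muscle also uses, was 1.04, 2.05, 1.04, 1.21 and 0.0559 CPM in wild type and 0.649, 1.16, 0.991, 0.65 and 1.15 CPM in knockout. For all 3 the groups overlapped, and no library exceeded 2.95 CPM, while Acta1 ranged from 2.14 to 7324 CPM. Their log2 changes were -0.49 (SE 0.375), -1.26 (SE 0.574) and -0.23 (SE 0.55). That of Tnnc1 turned positive without wild-type replicate 2 (0.16).

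Counts of the 7 slow fibre genes were 0.0626% to 0.556% of the counts of slow and fast genes together in the 7 libraries with Acta1 above 100 CPM. In knockout replicates 1, 3 and 4 this share was 4.34%, 10.3% and 5.09% (95% Wilson intervals 3.2% to 5.85%, 7.77% to 13.5% and 3.8% to 6.78%). The absolute slow gene counts there were 40, 45 and 43, against 48 and 74 in knockout replicates 2 and 5, while the fast gene counts were 882, 393 and 802, against 76638 and 112687. The difference in share thus lies mainly in the fast gene counts.

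Z-disc and scaffold genes held both genes that passed. Csrp3 (gene ID 13009), encoding the muscle LIM protein MLP, was 12.4, 1.42, 5.57, 3.26 and 1.51 CPM in wild type and 0.379, 0, 0, 0.108 and 0.577 CPM in knockout. All 5 wild-type libraries lay above all 5 knockout libraries, with 463 counts over the wild-type and 20 over the knockout libraries. Csrp3 fell by 4.46 on the log2 scale, from 4.84 ± 4.57 to 0.213 ± 0.256 CPM (SD, n = 5 each, SE 0.936, edgeR adjusted p = 0.0163). It passed in each fit that left out 1 library, with adjusted p of 0.0129 to 0.0417. Knockout replicates 2 and 3 had 0 counts, which allows up to 3 counts, so that the size of the change is set by few reads.

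Csrp3 did not follow the other muscle genes across libraries. Per 1000 CPM of Acta1 it was 15.1, 0.194, 12.1, 1.72, 8.53, 0 and 0.361 CPM in wild-type replicates 1 to 5 and knockout replicates 2 and 5. It was highest in wild-type replicate 1 (12.4 CPM), which had the third highest Acta1 level among wild-type libraries, and low in wild-type replicate 2, which had the highest. Wild-type replicate 1 also had the highest level of Myh8, Tnni1 and Tnnt1 and of 5 of 6 tendon markers, whose sum was 242 CPM there and 39.2 to 73.2 CPM in the other 9 KPC libraries. After their values were seen, Myh3 (embryonic myosin heavy chain) and Mymk (the fusion factor myomaker) were singled out, with 3.83 and 1.24 CPM in wild-type replicate 1 and at most 0.474 and 0.0559 CPM elsewhere. Of the 14 genes of embryonic, regenerating or denervated fibres, which hold Myh3, 6 were highest in wild-type replicate 1 and 4 in replicate 2. Of the 12 myogenic regulators and satellite cell genes, which hold Mymk, 2 were highest in wild-type replicate 1 and 7 in replicate 2. In wild-type replicates 1 and 2 the first list summed to 623 and 614 CPM and the second to 71.1 and 177 CPM. The part of any of these genes in the Csrp3 result was not tested. Csrp3 passed without wild-type replicate 1 too.

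Myoz2 (gene ID 59006), the slow fibre calsarcin of the Z-disc, was 3.16, 4.47, 0.833, 0.893 and 1.28 CPM in wild type and 0, 0.0526, 0, 0 and 0.734 CPM in knockout. The groups did not overlap, but knockout replicate 5 (0.734 CPM) was close to wild-type replicate 3 (0.833 CPM). Myoz2 fell by 3.70 on the log2 scale, from 2.13 ± 1.62 to 0.157 ± 0.323 CPM (SD, n = 5 each, SE 0.999, edgeR adjusted p = 0.0367). The call rests on 202 counts in wild type and 15 in knockout. It was lost without any 1 of wild-type replicates 1, 2 and 5 or knockout replicates 1, 2, 3 and 4 (adjusted p of 0.059 to 0.0784), and without the filter on low counts (0.0503). Myoz1, its fast fibre counterpart, had a log2 change of -2.36 (SE 1.5, edgeR adjusted p = 0.303).

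**Figure D4:**
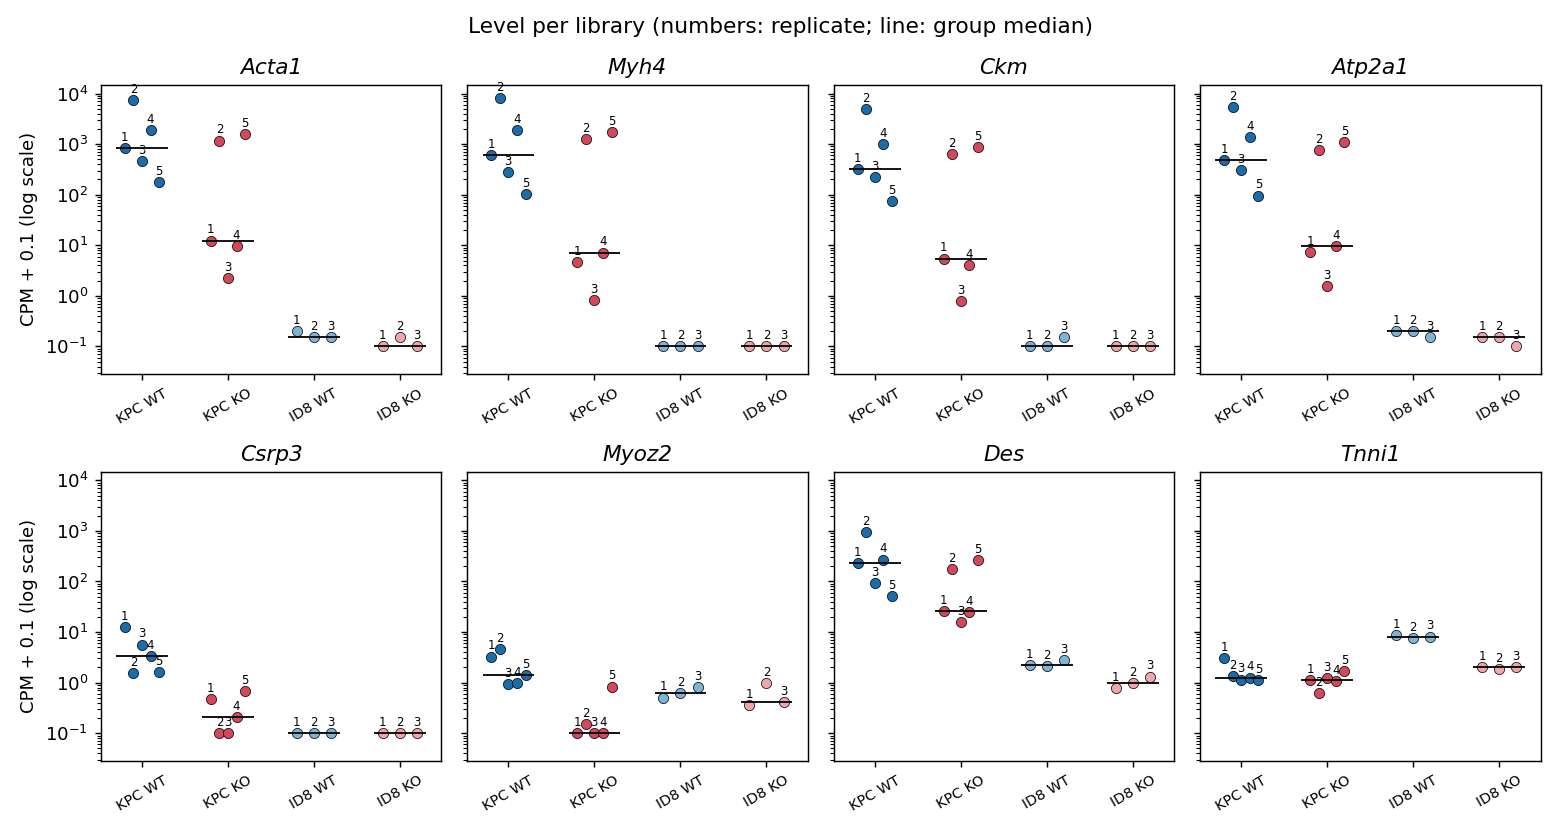
Levels of 8 of the genes in each library (y axis, CPM + 0.1 on a log scale) by group, with replicate numbers at the points and a line at the group median. Acta1, Myh4, Ckm and Atp2a1 show the same split of the knockout libraries (replicates 2 and 5 high, replicates 1, 3 and 4 low), Csrp3 and Myoz2 do not overlap between KPC genotypes, and Tnni1 is higher in ID8 wild type.

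Of the Z-disc and scaffold genes, the one with the highest CPM, without regard to length, was Des in 5 KPC libraries, Ttn in 3 and Actn3 in 2. Ttn, the giant spring titin, was 191, 1615, 160.4, 465 and 49.4 CPM in wild type and 3.46, 258, 2.03, 4.88 and 404 CPM in knockout (log2 change -1.91, SE 1.55, edgeR adjusted p = 0.417), with the same overlap as Acta1. The fast fibre alpha-actinin Actn3 had a log2 change of -2.20 (SE 1.78), and Actn2, the form of all fibres, one of -2.25 (SE 1.2). Tcap, Myot and Xirp2 had log2 changes of -2.12, -1.92 and -2.46. None of these passed.

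Des, encoding the intermediate filament desmin that smooth muscle also uses, was 230.1, 939, 92.5, 269.6 and 51.7 CPM in wild type and 26.2, 174, 15.8, 24.7 and 264 CPM in knockout (log2 change -1.67, SE 1.03, edgeR adjusted p = 0.289). Des, Eno3 and Tnni2 together made up 46.5%, 63.6% and 37.1% of the counts of all 39 genes in knockout replicates 1, 3 and 4, and 6.36% to 11.0% in the other 7 KPC libraries. Among the 24 genes with over 3 counts in all KPC libraries, these 3 had the smallest ratios of the highest to the lowest library after Tnni1, namely 59.4, 72.8 and 164. Smooth muscle markers, a list of 10 that also holds Des, summed to 526.5 to 1420 CPM in KPC wild type and 553 to 908 CPM in KPC knockout, with 0 of 10 passing. Myh11, the smooth muscle heavy chain, was 18.5 to 46.1 CPM in KPC wild type and 23.8 to 35.2 CPM in KPC knockout. The part of smooth muscle in the level of Des was not tested.

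Atp2a1, the fast fibre calcium pump SERCA1, had the highest CPM of the calcium handling genes in 9 of 10 KPC libraries, without regard to length, and Ryr1 in knockout replicate 3. Atp2a1 was 485, 5337, 303, 1352 and 95.9 CPM in wild type and 7.19, 752, 1.46, 9.43 and 1100.2 CPM in knockout (log2 change -2.05, SE 1.75, edgeR adjusted p = 0.441). Casq1, which stores calcium in the reticulum of fast fibres, was 33.6, 488, 23.7, 102 and 9.77 CPM in wild type and 1.3, 59.3, 0.678, 1.41 and 85.3 CPM in knockout. It had the largest log2 change in the group, -2.18 (SE 1.5, edgeR adjusted p = 0.339), and its groups overlapped as those of Atp2a1 did. The release channel Ryr1, its partner Trdn and the calcium buffer Pvalb had log2 changes of -1.96, -2.04 and -2.07. None of the 5 passed.

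Among genes of energy and oxygen, Ckm was 321, 4908, 221, 992 and 74.9 CPM in wild type and 5.35, 639, 0.678, 3.9 and 877 CPM in knockout (log2 change -2.13, SE 1.84, edgeR adjusted p = 0.448). Mb, the oxygen store myoglobin, was 13.3, 103, 15.9, 25.5 and 4.58 CPM in wild type and 0.649, 1.63, 0, 0.325 and 13.2 CPM in knockout. Only knockout replicate 5 lay above the lowest wild-type library, as for Myh2. The log2 change of Mb was -3.38 (SE 1.3, edgeR adjusted p = 0.11), and without knockout replicate 5 it was -5.63 (adjusted p = 0.032). Over all fits that left out 1 library it ranged from -5.63 to -2.20 (edgeR adjusted p of 0.032 to 0.244). The genes Pygm (glycogen phosphorylase), Eno3 (a glycolytic enzyme) and Ampd1 (AMP deaminase) had log2 changes of -2.04, -1.87 and -2.08, none of which passed.

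Relative to Acta1, most of the genes kept a steady ratio in the 7 KPC libraries with Acta1 above 100 CPM (all but knockout replicates 1, 3 and 4). Of 31 genes with over 3 counts in each of these, 22 varied by under 2-fold in their ratio to Acta1, counting Acta1 itself, and 3 (Pvalb, Xirp2 and Des) varied by 2-fold to 5-fold. The other 6, namely Myh1, Mb, Tnnt1, Tnni1, Actn2 and Mybpc1, varied by 5-fold or more. Per 1000 CPM of Acta1, Ryr1 ranged from 89.2 to 109 CPM over these libraries, and Mb ranged from 1.39 CPM in knockout replicate 2 to 34.5 CPM in wild-type replicate 3. The ratios share the count of Acta1 and the libraries, and no test was made of them.

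The other genes of mature muscle fibres showed the same order of libraries. Of a list of 61 further genes 59 were listed and 58 tested, and 54 of the 59 had their highest KPC level in wild-type replicate 2. All 58 changes were negative, with a median log2 change of -1.91 against -0.01 over all genes. Because these genes share the order of the libraries too, their signs are not independent. Against 7.01% of all genes tested that passed as lower, 1 of the 58 did. This was Myom3, encoding an M-band protein of the sarcomere, which fell from 3.59 ± 0.497 to 1.22 ± 0.384 CPM (log2 change -1.55, SE 0.227, edgeR adjusted p = 0.00345). Myom3 was within 3.05 to 3.99 CPM in all wild-type and within 0.813 to 1.62 CPM in all knockout libraries, and so did not follow the order of Acta1. Ankrd23, a stretch-responsive ankyrin repeat gene and the one with the highest mean CPM, was 164, 1177, 61.5, 262 and 22 CPM in wild type and 6.38, 171, 6.36, 6.94 and 244 CPM in knockout, in the order of Acta1 except that knockout replicate 4 exceeded knockout replicate 1.

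Markers of other tissues were measured in the same libraries. Heart muscle markers, some of which skeletal muscle also uses, summed to 22.8 to 123 CPM in wild type and 17.9 to 44.2 CPM in knockout. Of this list, Myh6 was at most 0.21 CPM, Nppb at most 0.108 CPM and Nkx2-5 at 0 counts in 9 of 10 KPC libraries. Nppa and Hand2 were not listed, and the highest mean CPM was that of Tnnt2. Of 5 tested, Tnnt2 passed as lower and Myl7 as higher in knockout, against 13.7% of all genes tested that passed in either direction. Adipocyte markers summed to 319, 432, 353, 555 and 782 CPM in wild type and 426, 262, 271, 388 and 392 CPM in knockout, with 0 of 12 passing and a median log2 change of -1.06. Skin and keratinocyte markers summed to 26.9, 27.2, 844, 31 and 153 CPM in wild type and 118, 20.7, 20.7, 28.3 and 23.3 CPM in knockout, with 0 of 6 passing. The highest adipocyte sums were those of wild-type replicates 5 and 4, and the highest skin and keratinocyte sums those of wild-type replicates 3 and 5 and knockout replicate 1. Leukocyte markers summed to 1783, 1372, 1649.5, 2739 and 1251 CPM in wild type and 3014, 2086, 2867, 3220.3 and 2610.2 CPM in knockout. All 7 leukocyte markers tested had a positive log2 change in knockout, with a median of 0.73, and 0 passed. Among knockout libraries the leukocyte sums were highest in replicates 1, 3 and 4, the libraries with little muscle RNA, and among wild-type libraries they were lowest in replicates 2 and 5, which had the most and the least muscle RNA of their group. The part of any of these lists in the muscle gene levels was not tested.

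**Figure D5:**
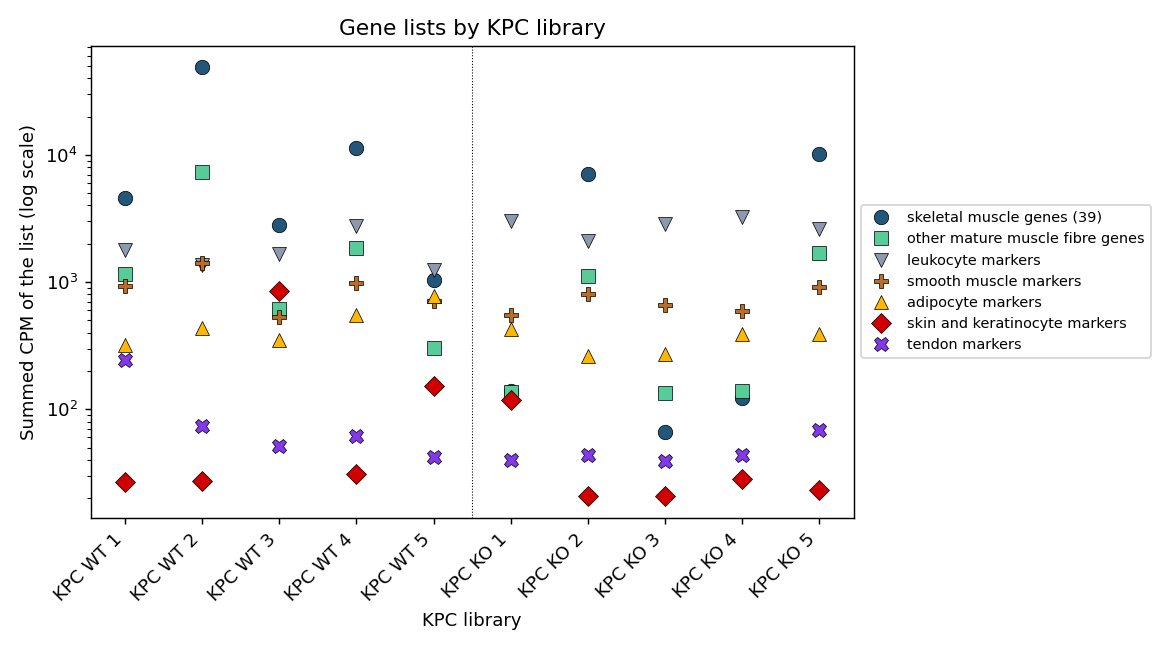
Summed level of the 39 skeletal muscle genes and of 6 other lists (y axis, CPM on a log scale) in each KPC library, wild type left and knockout right of the dotted line. The other mature fibre genes follow the 39 genes, from 48763 CPM for the 39 genes in wild-type replicate 2 to 66.6 CPM in knockout replicate 3, while leukocyte markers stay between 1251 and 3220 CPM and tendon and keratinocyte markers stand high in single libraries.

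In ID8 most of the genes were hardly detected. Of the 39 genes 13 had 0 counts in all 6 ID8 libraries. Among them were the heavy chain genes Myh1, Myh2, Myh4, Myh7 and Myh8, the scaffold gene Ttn and the thin filament gene Neb. Another 14 did not exceed 3 counts in any ID8 library, and 9 had over 3 counts in every one, namely Tnni1, Tnnc1, Mylpf, Actn3, Ryr1, Myoz2, Des, Pygm and Eno3. Eno3 was 43.4, 47.4 and 44.5 CPM in ID8 wild type and 36.3, 37.8 and 40.4 CPM in ID8 knockout, and made up 50.7% to 73.3% of the counts of the 39 genes there.

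Between wild-type lines, 31 of 35 genes tested were higher in KPC and 1, Tnni1, was lower, against 44.3% and 34.8% of all 14507 genes that passed as higher and as lower (79.1% in either direction, edgeR adjusted p of 0.05). Eno3, Tnnc1 and Tnnt1 did not pass. Groups did not overlap for 32 genes, against 77.2% of all genes tested. Between knockout lines, 10 of 28 genes tested were higher in KPC and Tnni1 was lower, against 44.8% and 34.2% of all 14382 genes (79.0% in either direction), and 23 did not overlap, against 77.4%. Many of the genes entered these tests through KPC alone, so their counts as higher are no support for a difference. The count for knockout lines was 27 by DESeq2 and 7 by limma-voom, 2 without any 1 ID8 knockout library, and 3 and 18 without KPC knockout replicates 2 and 3. Markers of other host cells were also low in ID8. Endothelial markers summed to 1.79 to 2.67 CPM in ID8 and 334 to 513 CPM in KPC, and red blood cell markers to 0 to 0.154 CPM and 76.8 to 214 CPM, beside the leukocyte markers given above. The ID8 libraries thus held little RNA of host cells of any of these 3 kinds, and its part in the muscle gene differences between lines was not tested. Line, implantation site, processing of the tables and whether the RNA came from cells or tumour tissue cannot be told apart in these comparisons.

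Tnni1 was the gene with the opposite pattern. It was 8.52, 7.45 and 8.05 CPM in ID8 wild type and 1.94, 1.73 and 1.95 CPM in ID8 knockout, while in KPC it was 0.526 to 2.95 CPM. The log2 change of Tnni1 for wild-type KPC against wild-type ID8 was -2.57 (edgeR adjusted p = 0.000145). Of the other slow genes, Tnnt1 was 0.558, 0.514 and 0.564 CPM in ID8 wild type and 0.21, 0 and 0.211 CPM in ID8 knockout, without overlap, but had too few counts to be tested. Tnnc1 was 0.862, 0.617 and 0.718 CPM and 0.524, 0.21 and 0.264 CPM, also without overlap. The groups overlapped for Myoz2, and Myh7 and Myl3 had 0 counts and Myl2 1 count in ID8.

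Of 8 genes tested between ID8 genotypes, 7 passed, against 50.8% of all 11933 genes tested (25.4% higher and 25.5% lower), and the same 7 did not overlap, against 60.3%. Tnni1 fell by 2.17 on the log2 scale (SE 0.136, edgeR adjusted p = 1.66e-09), and Actn3 fell by 1.84 (SE 0.0928, adjusted p = 1.19e-10). The edgeR fit gave a common coefficient of variation between replicates of 5.08% in ID8, against 25.1% in KPC. The labels give no further source of the ID8 replicates, so these p-values need not measure the spread between separate tumours. Actn3 was 24.1, 21.3 and 23.1 CPM in ID8 wild type and 5.98, 6.99 and 7.22 CPM in ID8 knockout, and every wild-type library lay above every knockout library. Ryr1, Des, Tnnc1 and Eno3 also fell, with log2 changes of -1.46, -1.38, -1.20 and -0.31. The call for Tnnc1 was lost without wild-type replicate 1 (adjusted p = 0.07), knockout replicate 2 (0.0783) or knockout replicate 3 (0.0636), and by DESeq2 with all libraries (0.0651). In the joint fit of the 4 groups Tnni1 alone of the 7 passed (adjusted p = 0.00122), and the other 6 had adjusted p of 0.286 to 0.974. That fit estimates the spread of a gene over both lines. The other 6 had log2 changes of -1.84 (Actn3) to 0.91 (Pygm) there, close to those with ID8 fitted alone. The SE of Actn3 was 2.01 in the joint fit, against 0.0928 with ID8 alone. Pygm, the muscle glycogen phosphorylase gene, rose by 0.91 on the log2 scale (SE 0.249, edgeR adjusted p = 0.00594), from 0.749 ± 0.141 to 1.49 ± 0.113 CPM (SD, n = 3 each). Mylpf did not pass (log2 change 0.24, SE 0.319). The 31 other genes did not pass the filter on low counts in ID8, so the lines could be compared in their genotype change only for these 8, and that difference was not tested.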

How the data were processed

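The submitters' processing notes name HISAT, RSEM 1.2.8 and the build GRCm39 (mm39), and the authors deposited RSEM expected counts, 1 value for each gene and sample, with no sign of normalization in the values. Here values were rounded to whole numbers, genes absent from a table were set to 0, and all 16 columns were matched to a sample. Tests used edgeR 4.0.16 in R 4.3.3 (TMM scaling, filterByExpr, robust quasi-likelihood F test, Benjamini-Hochberg adjustment over all genes tested at 0.05), each line fitted alone. SE is approximate, computed as log2 change over the root of F. CPM uses library totals without TMM. The procedure was tested on simulated data. Those counts were drawn gene by gene, without the differences between libraries that the muscle genes share, so they do not cover that case. Alternatives were median-of-ratios scaling, DESeq2 1.42.0, limma-voom (limma 3.58.1), no filter, a filter at 1 CPM, a replicate block, a joint fit and leaving out each library. Per-length values used GENCODE M21 transcripts.

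The 39 genes and all lists were chosen with earlier results of these data known. Values in every KPC library are given for the genes called, the highest and the most changed gene of each role, and fast and slow counterparts; of other lists, for called genes and the highest gene. Replicates are samples the labels number as biological replicates, with no further source given. No GRCm39 genome or protein table was used here.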

Additional observations from a re-analysis of the deposited data

Results flagged for a closer look

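Single libraries stood far from the rest of their group for many of the genes. In 37 of 78 pairs of a gene and a KPC group, the gap of the highest library to the next one, as a share of the group's range, was above Dixon's critical value at the 95% level for 5 libraries. Chance puts about 1 in 20 groups past that value only where levels are normally distributed. The gaps were taken in CPM, on which most of the genes differed by orders of magnitude between libraries, so that this rate need not hold here. Gaps on a log scale were not examined. Since the genes follow the same libraries, the 37 pairs are not separate observations.

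Wild-type replicate 2 stood apart among the KPC wild-type libraries for the contractile genes, with the CPM in parentheses, namely Myh4 (8138), Acta1 (7324), Tnnt3 (3319.9), Tnni2 (1137), Tnnc2 (1423), Mylpf (1703), Myl1 (1722), Mybpc2 (1455), Neb (887), Myh2 (114), Myl3 (9.78), Myh7 (3.16). It stood apart in the same way for genes of the Z-disc, scaffold, calcium handling and metabolism, namely Atp2a1 (5337), Ckm (4908), Actn3 (1902), Ttn (1615), Pygm (1378), Pvalb (1239), Eno3 (1026), Des (939), Ryr1 (730.2), Casq1 (488), Xirp2 (328), Myoz1 (314), Ampd1 (229), Tcap (228), Trdn (138), Myot (119), Mb (103). The summed 39 genes reached 48763 CPM there, the other mature fibre genes 7308 CPM, and the myogenic regulators 177 CPM.

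Other libraries stood apart for fewer genes. Wild-type replicate 1 did so for Myh8 (2.69), Tnni1 (2.95) and for the summed tendon markers (242 CPM). Knockout replicate 5 did so among knockout libraries for Myh1 (136), Mybpc1 (49.2), Actn2 (21.5), Mb (13.2), Myh2 (5.82), Myoz2 (0.734) and for the tendon markers (68.2 CPM). Skin and keratinocyte markers stood apart in wild-type replicate 3 (844 CPM) and knockout replicate 1 (118 CPM), and endothelial markers in wild-type replicate 4 (491 CPM).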

How the results depend on the processing

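Of the log2 changes recomputed under an alternative, 1366 kept their direction and their side of the threshold, 83 lost the call, 42 gained it and 4 changed sign. The 2 calls of the 39 genes in KPC became 1 without the filter on low counts, with the 1 CPM filter and with the replicate block (Myoz2 adjusted p = 0.0515), 3 by DESeq2 and in the joint fit (Myh2 added) and by limma-voom (Myh1 added), and 1 to 5 when a library was left out. Myoz2 was not tested with the 1 CPM filter. The 5 without knockout replicate 5 were Csrp3, Myoz2, Myh1, Myh2 and Mb. Csrp3 passed in each setting (adjusted p of 1.48e-05 to 0.0417). Over all genes, 1954 passed in KPC by edgeR, 3162 by DESeq2, 3163 by limma-voom and 3524 in the joint fit, and 927 to 3106 when a library was left out. In ID8 the joint fit of the 4 groups gave 2679 genes instead of 6067 and 1 of the 39 genes instead of 7. The joint fit estimates the spread of a gene over both lines. For knockout lines the 11 calls became 27 by DESeq2, 7 by limma-voom and 2 to 18 when a library was left out. Signs changed for Tnnc1 between KPC genotypes (0.54 by limma-voom and 0.16 without wild-type replicate 2, with a range of -0.54 to 0.16 when a library was left out), for Tnnc1 between wild-type lines (-0.25 by limma-voom) and for Mylpf in ID8 (-0.0049 without knockout replicate 3, with a range up to 0.56). The cause was not tested for these changes. Replicate numbers did not pair the samples, as same-numbered KPC samples had correlations of deviations from -0.533 to 0.593 and 1 of 5 correlated best with its own number (1 of 3 in ID8). With the replicate block 1665 genes passed in KPC and 5852 in ID8, with 1 and 7 of the 39 genes. Depth limits Myh7, Myh8, Myl2 and Myl3 in KPC and 27 of the genes in ID8, which did not exceed 3 counts in any ID8 library.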

Other observations

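Of genes of muscle precursors and of remodelled fibres, 1 of 5 and 2 of 10 tested passed as lower in KPC knockout. Over all genes tested 7.01% passed as lower, and these counts are too few to tell the lists from that share. Of 12 myogenic regulators and satellite cell genes 5 were tested, and Megf10, a receptor of satellite cells that other cells also express, fell from 19.1 ± 9.32 to 3.01 ± 1.16 CPM (SD, n = 5 each, log2 change -2.65, SE 0.358, edgeR adjusted p = 0.00266), without overlap of the groups. Mef2c, a transcription factor of muscle and other cells and the one with the highest mean CPM, was 31.3, 106, 24, 44.3 and 23 CPM in wild type and 21.1, 28.9, 14.9, 17.7 and 35.2 CPM in knockout. Of 14 genes of embryonic, regenerating or denervated fibres, many of which other cells also express, 10 were tested. Their sum was 445 to 623 CPM in wild type and 441 to 605 CPM in knockout. Tnnt2, the troponin T of embryonic muscle and heart, fell by 0.79 on the log2 scale (SE 0.165, edgeR adjusted p = 0.0151), and Runx1, a transcription factor of denervated muscle and blood cells, fell by 0.27 (SE 0.0681, adjusted p = 0.0296). The groups overlapped for both.

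Some genes of other tissues passed in KPC too. Myl7, an atrial light chain gene, rose from 0.137 ± 0.126 to 0.753 ± 0.166 CPM (edgeR adjusted p = 0.0173), on 13 and 71 counts. Of 11 nerve and Schwann cell markers 7 were tested, and 2 passed as lower, against 7.01% of all genes tested. These were S100b and Mal, which fell by 2.35 and 1.36 on the log2 scale (edgeR adjusted p = 0.00728 and 0.01). The 7 had a median log2 change of -0.45, and the list summed to 174 to 233 CPM in wild type and 132 to 179 CPM in knockout. These 2 genes are too few to tell the list from the share over all genes. Cela1, the only pancreatic acinar gene tested, fell from 14.5 ± 5.1 to 4.01 ± 0.647 CPM (adjusted p = 0.00183). Endothelial and red blood cell lists had 0 of 7 and 0 of 5 genes passing.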
